A study of Mus musculus with 6 samples.

Results

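The vacuolar ATPase and lysosome genes were described here in NIH3T3 cells, an immortalized mouse embryonic fibroblast line. Members were the protein-coding genes whose symbol names a vacuolar ATPase (V-ATPase) subunit or accessory protein (Atp6v0, Atp6v1, Atp6ap1 and Atp6ap2 symbols) plus 26 listed genes, among them Tcirg1, which encodes another V-ATPase subunit. The rule gave 49 members of 55401 genes counted, 27 in the V-ATPase group and 22 in the lysosome group. The V-ATPase group held 10 genes of the membrane V0 domain, 14 listed with the cytosolic V1 domain and 3 named as accessory proteins. The lysosome group held 12 hydrolases, 2 soluble lipid-handling proteins, 4 membrane proteins, the autophagy receptor Sqstm1 and 3 transcription factors.

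Bulk RNA-Seq was performed on 6 libraries. EV cells carried the empty vector and received DMSO (n = 2), TC cells carried the TAZ-CAMTA1 fusion and received DMSO (n = 1), and TC + ATA cells carried the same fusion and received 10 μM aurintricarboxylic acid (n = 3). All cells were seeded 16 h before treatment and treated for 48 h. TAZ-CAMTA1 is the fusion oncoprotein of epithelioid hemangioendothelioma, a vascular sarcoma, and was expressed from a vector in cells that do not normally make it. The promoter of the vector and whether a line was a clone are not given in the sources used here. ATA is the small molecule that the study tested for breaking the contact of TAZ with TEAD factors. No EV cells treated with ATA were analysed here, so an effect of ATA on cells without the fusion could not be measured. The labels do not say whether libraries of a group came from separate cultures, so p-values measure the spread between these samples, which may be technical. The TC group had a single library, which was assumed to vary like the others and has no replicate check.

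The V-ATPase pumps protons into lysosomes, endosomes and the Golgi by coupling ATP hydrolysis in V1 to rotation of a proton-carrying ring in V0. Several subunits exist as isoforms made from separate genes, and some isoforms are known mainly from specialised acid-secreting cells. The acid pH activates the cathepsins, glycosidases and lipases of the lysosome, and the transcription factors TFEB, TFE3 and MITF are known to drive many of these genes through an E-box sequence in their promoters.

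Library totals lay between 58471484 and 74413193 counts, and values are given as CPM, each library's counts relative to its TMM-scaled library size. All 9 fibroblast markers examined were present. Their summed level was 16853 and 14705 CPM in EV, 18594 CPM in TC and 18208 to 19393 CPM in TC + ATA. Single markers went both ways. Thy1 had 204 and 183 CPM in EV, 69.6 CPM in TC and 79.8 to 86.0 CPM in TC + ATA. Pdgfra had 404 and 422, then 180.0, then 175 to 179 CPM. In TC, Fn1 and Pdgfrb were also below both EV libraries, Col1a1, Col1a2 and Vim were above both, and Col3a1 and S100a4 lay between them. The members took 0.569% and 0.526% of all counts in the EV libraries, 0.657% in TC and 0.732%, 0.724% and 0.73% in TC + ATA. The lysosome group accounted for most of this spread, at 0.411% and 0.371% in EV, 0.505% in TC and 0.555% to 0.561% in TC + ATA. The V-ATPase group stayed between 0.152% and 0.172% in every library. Between the EV libraries, EV 1 stood above EV 2 for 38 of the 42 members tested, against 49.7% of all genes, with a median log2 difference of 0.18 over the members. The median coefficient of variation was 11.1% in EV and 3.08% in TC + ATA over the members, and 11.2% and 6.61% over all genes. Counts of calls against EV are given below with and without each EV library.

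**Figure D1:**
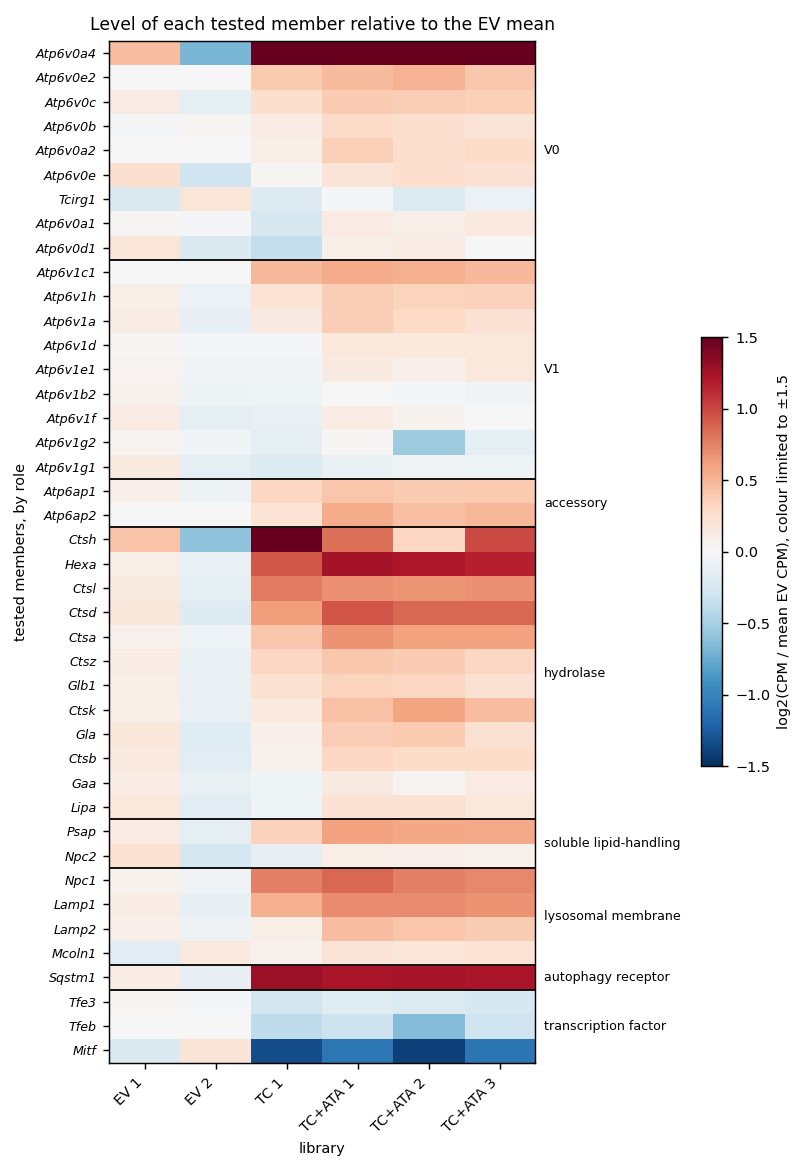
Colour gives log2 of each tested member's CPM over its EV mean in each of the 6 libraries (columns), with members (rows) ordered by role and colour limited to ±1.5. Sqstm1, Hexa, Npc1 and Atp6v0a4 are above EV in all 4 libraries with the fusion, Mitf is below EV in all 4, and most V1 subunits stay near the EV mean.

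Of the 49 members, 42 had enough counts to be tested, 20 in the V-ATPase group and all 22 in the lysosome group. The 7 that were not tested were subunit isoforms or relatives of subunits, several of them known from kidney, testis or osteoclasts. Atp6v1g3 and Atp6ap1l had 0 counts in every library, which allows at most 3 counts per library. Atp6v0d2 reached at most 5 counts in any library, Atp6v1c2 at most 4, and Atp6v1b1 and Atp6v1e2 at most 2. Atp6v1fnb, a neighbour of Atp6v1f that matches the naming rule but is not a pump subunit, had 1 count in 1 TC + ATA library and 0 elsewhere.

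The first comparison, TC versus EV, addresses which transcripts the fusion alters. In the V-ATPase group Atp6v0a4, Atp6v1c1 and Atp6ap1 rose and Atp6v0a1 fell, 3 and 1 of the 20 members tested at an adjusted p of at most 0.05, against 14.8% higher and 13.2% lower among all 18539 genes tested. In the lysosome group Sqstm1, Hexa, Ctsl, Npc1, Ctsd, Lamp1 and Ctsa rose and Mitf and Tfe3 fell, 7 and 2 of 22. Most members are well expressed, and calls were more common among such genes. Of the 35 members with a mean of at least 20 CPM, 25.7% were called higher and 5.71% lower. Of all 7666 genes at that level, 23.3% were called higher and 16% lower, so the share of members higher lay near it. Atp6v0a4 was the only member that also passed the study's limit of an absolute log2 fold change of 2, which 2.36% of all genes passed upward and 1.27% downward. The TC library was above both EV libraries for 23 of the 42 members and below both for 7, against 38.9% and 40.0% of all genes. The median log2 fold change was 0.06 over the V-ATPase members tested and 0.02 without Atp6v0a4, 0.19 over the lysosome members, and -0.03 over all genes. Without EV 1 the V-ATPase group had 8 members higher and 2 lower (20.4% and 20.1% of all genes) and the lysosome group 13 and 2, and without EV 2 they had 5 and 5 (20.3% and 19.6%) and 10 and 5.

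Atp6v0a4 (ENSMUSG00000038600, chr6:38048483-38124586 on the minus strand of GRCm38) encodes the a4 isoform of the V0 a subunit, the part of the pump that forms the proton path, and is known from intercalated cells of the kidney, the inner ear and the epididymis. It had 0.174 and 0.0787 CPM in EV (13 and 6 counts), 11.5 CPM in TC (800 counts) and 8.94, 9.14 and 8.22 CPM in TC + ATA (508, 648 and 572 counts). The 4 libraries with the fusion did not overlap with EV, and the TC library was above all 3 TC + ATA libraries. The log2 fold change was 6.50 ± 0.25 (SE, adjusted p = 7.24e-07) in TC versus EV, a 90.3-fold difference, and ranged from 6.03 to 7.15 over 13 other ways of processing. In TC + ATA versus TC it was -0.39 ± 0.17 (SE, adjusted p = 0.507). In bulk RNA, more cells with the transcript and more transcript per cell cannot be told apart.

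Part of the exon sequence of Atp6v0a4, 6.5% of its bases, is shared with D630045J12Rik on the same strand and with Tmem213 on the other. D630045J12Rik stayed between 21.2 and 27.2 CPM in all libraries (log2 fold change -0.07, adjusted p = 0.743, TC versus EV), and Tmem213 had 0 counts except for 6 in TC + ATA 3. Atp6v0a4 was also on a list of 7 markers of kidney intercalated cells, the cells best known for it. The other 6 of them, Atp6v1b1 included, were under 1 CPM in every library, and Foxi1 and Slc26a4 were at 0 throughout. The summed level of the list therefore followed Atp6v0a4 alone, at 0.227 and 0.105 CPM in EV, 11.8 CPM in TC and 8.43 to 9.25 CPM in TC + ATA.

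The sequence around the annotated start of Atp6v0a4 is shown because this gene differed most among the members and the fusion binds TEAD factors, whose core motif is GGAATG. The window begins upstream of the start and ends shortly after it (RefSeq, GRCm38.p6, chr6:38124537-38124836, minus strand, 5′ to 3′), and capitals mark the single match, CATTCC on this strand, which begins 56 bases before the start.
Atp6v0a4: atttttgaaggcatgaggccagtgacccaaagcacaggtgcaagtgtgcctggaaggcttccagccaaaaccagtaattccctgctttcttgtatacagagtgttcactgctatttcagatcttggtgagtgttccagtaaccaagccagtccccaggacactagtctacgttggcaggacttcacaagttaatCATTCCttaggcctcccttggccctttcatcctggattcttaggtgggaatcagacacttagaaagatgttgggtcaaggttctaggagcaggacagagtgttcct
GGAATG on either strand was found in 6 of the 51 windows that RefSeq lists for 39 members (11.8%) and in 14.7% of all 32851 windows. The other members with a match were Atp6v0c, Atp6v1d, Gaa, Glb1 and Npc2. None of them differed between TC and EV at an adjusted p of 0.05, with log2 fold changes from -0.13 for Npc2 to 0.24 for Atp6v0c. A match is a string of letters and does not show that a factor binds there.

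The a subunit is made from 4 genes, and the other 3 were present at similar levels in every library. Tcirg1, which encodes the a3 isoform known from osteoclasts and lysosomes, had 64.3 and 84.7 CPM in EV, 65.2 CPM in TC and 72.8, 64.4 and 70.0 CPM in TC + ATA. The EV libraries enclosed the 4 others, and TC differed from EV by -0.19 ± 0.15 on the log2 scale (SE, adjusted p = 0.391). The EV libraries decided this value: it was -0.39 and called without EV 1 (adjusted p = 0.00193) and 0.02 without EV 2 (adjusted p = 0.873). Atp6v0a1, the a1 isoform best known from neurons, had 66.0 and 63.9 CPM in EV, 55.0 CPM in TC and 70.9, 69.3 and 71.6 CPM in TC + ATA. The TC library was thus below all 5 others. Its fall in TC versus EV (-0.24 ± 0.08, SE) lay at the limit of the test with an adjusted p of 0.0499, and the call was lost in 8 of 13 other ways of processing. Atp6v0a2, the a2 isoform of the Golgi and endosomes, had 60.4 CPM in both EV libraries, 64.7 CPM in TC and 77.2, 71.7 and 73.1 CPM in TC + ATA. The TC library was above EV and all TC + ATA libraries were above TC, and TC versus EV did not pass the test (0.10 ± 0.08, SE, adjusted p = 0.421).

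Levels of the isoforms can be compared after division by the length of the merged exons. On that scale of CPM per kb, Tcirg1 made up 42.2% and 49.5% of a-subunit transcripts in EV, 41.1% in TC and 37.8% to 39.6% in TC + ATA. Atp6v0a1 made up 24.3% to 30.5% and Atp6v0a2 24.2% to 28.8% over all libraries. Atp6v0a4 made up 0.106% and 0.0426% in EV, 6.72% in TC and 4.5%, 4.96% and 4.28% in TC + ATA. It was the least abundant of the 4 isoforms where it was highest. The sum over the 4 genes was 33.0 and 37.1 CPM per kb in EV, 34.5 in TC and 37.1 to 39.9 in TC + ATA, so the TC library lay within the range of EV. The other subunits with several genes were each dominated by 1 isoform: Atp6v0d1, Atp6v1b2, Atp6v1c1, Atp6v1e1 and Atp6v1g1 held at least 99.2% of their subunit's transcripts in every library, and Atp6v0e held 89.6% to 92.9%, the rest being Atp6v0e2.

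**Figure D2:**
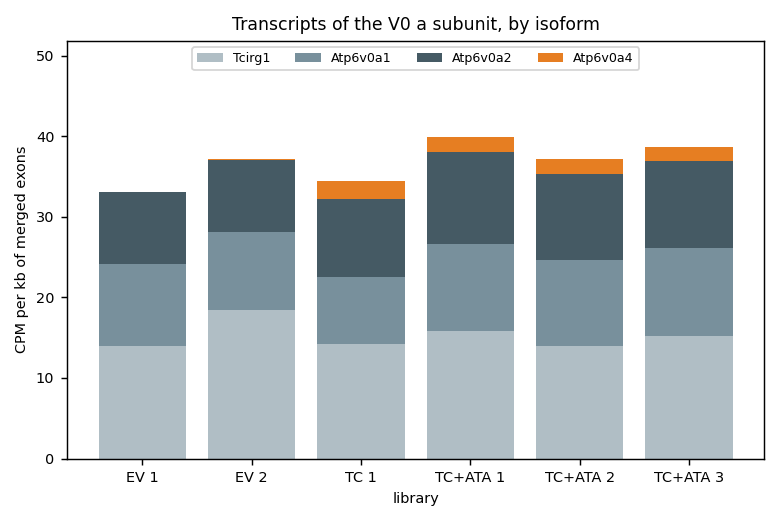
Stacked bars give CPM per kb of merged exons (y axis) for the 4 genes of the V0 a subunit in each library (x axis). The summed height stays between 33.0 and 39.9 CPM per kb, and the Atp6v0a4 segment is visible only in the TC library (2.32 CPM per kb) and the 3 TC + ATA libraries (1.65 to 1.84 CPM per kb).

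Among the other V0 genes, the ring subunits Atp6v0c and Atp6v0b, the d subunit Atp6v0d1 and the small e subunits Atp6v0e and Atp6v0e2 did not pass the test in TC versus EV. Their log2 fold changes ran from -0.35 ± 0.15 (SE, adjusted p = 0.108) for Atp6v0d1 to 0.39 ± 0.17 (SE, adjusted p = 0.123) for Atp6v0e2. The EV libraries themselves were 70.5 and 48.5 CPM for Atp6v0e and 68.0 and 51.5 CPM for Atp6v0d1, a wider gap than that between the means of EV and TC. Atp6v0e was called higher in TC without EV 1 (0.30, adjusted p = 0.00239) and lower without EV 2 (-0.23, adjusted p = 0.0117), and Atp6v0d1 was called lower without EV 2 (-0.54, adjusted p = 6.83e-05). Of the 9 V1 genes tested only Atp6v1c1 was called in TC versus EV. Atp6v1c1 encodes the C1 subunit, which clamps V1 to V0 and is released when the pump disassembles. It had 68.1 and 67.6 CPM in EV, 95.0 CPM in TC and, in TC + ATA, 97.9 ± 2.67 CPM (SD, n = 3). All libraries with the fusion were above EV, and the log2 fold change of 0.49 ± 0.08 (SE, adjusted p = 0.00154) was called under all 13 alternatives. The catalytic A and B subunits (Atp6v1a and Atp6v1b2) and the rotor subunits D and F did not pass the test. Nor did the stalk subunits E1, G1 and G2 and the regulatory H subunit. Log2 fold changes of these genes ran from -0.21 for Atp6v1g1 to 0.21 for Atp6v1h, with adjusted p-values of 0.125 or more. Some moved with the EV libraries. Without EV 2 Atp6v1g1 was at -0.35 and Atp6v1f at -0.24, and without EV 1 Atp6v1h was at 0.29 and Atp6v1a at 0.25. Each of these was called in the fit named, which left a single EV library. The V0 gene Atp6v0c was likewise called without EV 1 (0.37), and Atp6v0b without EV 2 (0.14). Library total scaling gave -0.31 for Atp6v1g1, which was then called lower (adjusted p = 0.0325).

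The accessory proteins Atp6ap1 and Atp6ap2 assist assembly of V0, and Atp6ap2 is also the (pro)renin receptor. Atp6ap1 had 173 and 155 CPM in EV, 204 CPM in TC and 219, 214 and 216 CPM in TC + ATA, with a log2 fold change of 0.32 ± 0.09 (SE, adjusted p = 0.0266) in TC versus EV. The groups did not overlap, and the call was lost in 5 of 13 alternatives, with a highest adjusted p of 0.257. Atp6ap2 had 67.5 and 66.5 CPM in EV, 77.3 CPM in TC and 98.6, 91.3 and 94.6 CPM in TC + ATA. TC versus EV did not pass the test for it (0.21 ± 0.08, SE, adjusted p = 0.093), but did without EV 1 (adjusted p = 0.0217) or EV 2 (adjusted p = 0.028).

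The 12 hydrolases all break down cargo delivered to the lysosome. In TC versus EV, Hexa, Ctsl, Ctsd and Ctsa rose, none fell, and 8 did not pass the test. Hexa, which encodes the alpha subunit of beta-hexosaminidase that degrades gangliosides, had 70.2 and 61.5 CPM in EV, 126 CPM in TC and 157, 153 and 148 CPM in TC + ATA. TC was above EV and below TC + ATA without overlap, and TC exceeded EV by a log2 fold change of 0.93 ± 0.09 (SE, adjusted p = 9.91e-05). Ctsl, a cysteine protease, had 568 and 465 CPM in EV, 890 CPM in TC and 834, 815 and 831 CPM in TC + ATA, and Ctsd, the main aspartic protease of the lysosome, had 121 and 94.5, then 166, then 208, 195 and 195 CPM. The log2 fold changes of TC versus EV were 0.78 ± 0.12 (SE, adjusted p = 0.00117) for Ctsl and 0.62 ± 0.13 (SE, adjusted p = 0.00731) for Ctsd. For Ctsl the TC library was the highest of the 6, whereas for Ctsd it was below all TC + ATA libraries. Of the exon bases of Ctsd 34.4% overlap Gm49369 on the same strand. For Ctsl 32.9% overlap Gm49230 on the same strand or Gm47123 on the other. These 3 genes had 0 counts in every library, and the part of reads lost from Ctsd and Ctsl was not tested. Ctsa, a carboxypeptidase that also protects beta-galactosidase and neuraminidase, had 136 and 124 CPM in EV, 172 CPM in TC and 198 to 208 CPM in TC + ATA (0.40 ± 0.09, SE, adjusted p = 0.00812, TC versus EV), and the call was lost under a replicate block and with only the groups compared (adjusted p = 0.106 in each). Its exons and those of Pltp share bases on opposite strands, and Pltp rose as well, from 7.53 and 7.02 CPM in EV to 16.9 CPM in TC and 23.4 to 25.7 CPM in TC + ATA. The part of Pltp reads in the Ctsa counts was not tested, since the use of strand in counting is not given in the sources used here.

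Ctsb, another abundant cysteine protease, did not pass the test in TC versus EV. Of its exon bases 12.8% overlap Fdft1 on the other strand, which fell from 204 and 176 CPM in EV to 132 CPM in TC. The part of Fdft1 reads in the Ctsb counts was not tested. Ctsb had 410 and 329 CPM in EV, 385 CPM in TC and 457, 446 and 447 CPM in TC + ATA. The TC library fell between the EV libraries (0.06 ± 0.12, SE, adjusted p = 0.767), and the sign of the difference turned with library total scaling (-0.04) and without EV 2 (-0.09), while without EV 1 it was 0.22 and called (adjusted p = 0.00106). The remaining hydrolases were the cathepsins Ctsz, Ctsk and Ctsh, the glycosidases Gaa, Gla and Glb1, whose loss causes Pompe disease, Fabry disease and GM1 gangliosidosis, and the acid lipase Lipa. Their log2 fold changes ran from -0.07 for Lipa to 0.31 for Ctsz, except for Ctsh. Ctsh, at 1.60 ± 0.85 (SE, adjusted p = 0.205), rested on 4 to 17 counts per library. Ctsz lay near the limit (adjusted p = 0.0533) and was called higher in 6 of 13 alternatives, DESeq2 among them (adjusted p = 0.0326). Its log2 fold change was 0.41 without EV 1 and 0.20 without EV 2.

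Of the membrane proteins, Lamp1 and Npc1 rose in TC versus EV. Lamp1 and Lamp2 are the heavily glycosylated proteins that line the lysosomal membrane. Lamp1 had 358 and 306 CPM in EV, 480 CPM in TC and 544, 543 and 531 CPM in TC + ATA, and Lamp2 had 259 and 232 CPM in EV, 261 CPM in TC and 338, 328 and 319 CPM in TC + ATA. Lamp1 was above EV in all 4 libraries with the fusion (0.53 ± 0.10, SE, adjusted p = 0.00514, TC versus EV), and the call was lost under a replicate block (adjusted p = 0.0686) and with only the groups compared (adjusted p = 0.0726). The TC library of Lamp2 lay at the upper EV value (0.09 ± 0.09, SE, adjusted p = 0.531), and the difference was called without EV 1 (0.16, adjusted p = 0.0135). Npc1, which exports cholesterol from the lysosome, had 23.9 and 22.3 CPM in EV, 39.0 CPM in TC and 41.8, 39.1 and 38.0 CPM in TC + ATA (0.76 ± 0.09, SE, adjusted p = 0.000398). Npc2, which hands cholesterol to Npc1, did not follow it: 307 and 219 CPM in EV enclosed 241 CPM in TC and 276 to 282 CPM in TC + ATA. Its difference between TC and EV was called lower without EV 2 (-0.35, adjusted p = 4.42e-05) and higher without EV 1 (0.12, adjusted p = 0.0359). Psap, the precursor of the saposins that present lipids to hydrolases, was the most abundant member per length in every group (306, 387 and 459 CPM per kb in EV, TC and TC + ATA) and had a log2 fold change of 0.34 ± 0.12 (SE, adjusted p = 0.0595) in TC versus EV. Psap was called higher in 6 of 13 alternatives, among them those without EV 1 (adjusted p = 1.35e-06) and without EV 2 (adjusted p = 0.000556). The calcium channel gene Mcoln1 had 39.0 and 48.0 CPM in EV, 45.6 CPM in TC and, in TC + ATA, 49.6 ± 0.355 CPM (SD, n = 3).

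Sqstm1 (p62), a receptor that carries ubiquitinated cargo into autophagosomes and is itself degraded in lysosomes, had the largest rise of the lysosome group among the well-counted members. It had 393 and 336 CPM in EV, 892 CPM in TC and 855, 862 and 855 CPM in TC + ATA. The 4 libraries with the fusion lay close together and did not overlap with EV. The log2 fold change was 1.29 ± 0.10 (SE, adjusted p = 2.96e-05) in TC versus EV and -0.06 ± 0.10 (SE, adjusted p = 0.911) in TC + ATA versus TC. Of its exon bases 17.3% overlap Mrnip on the other strand, which had 3.61 and 3.45 CPM in EV, 2.25 CPM in TC and 2.64 to 2.73 CPM in TC + ATA.

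**Figure D3:**
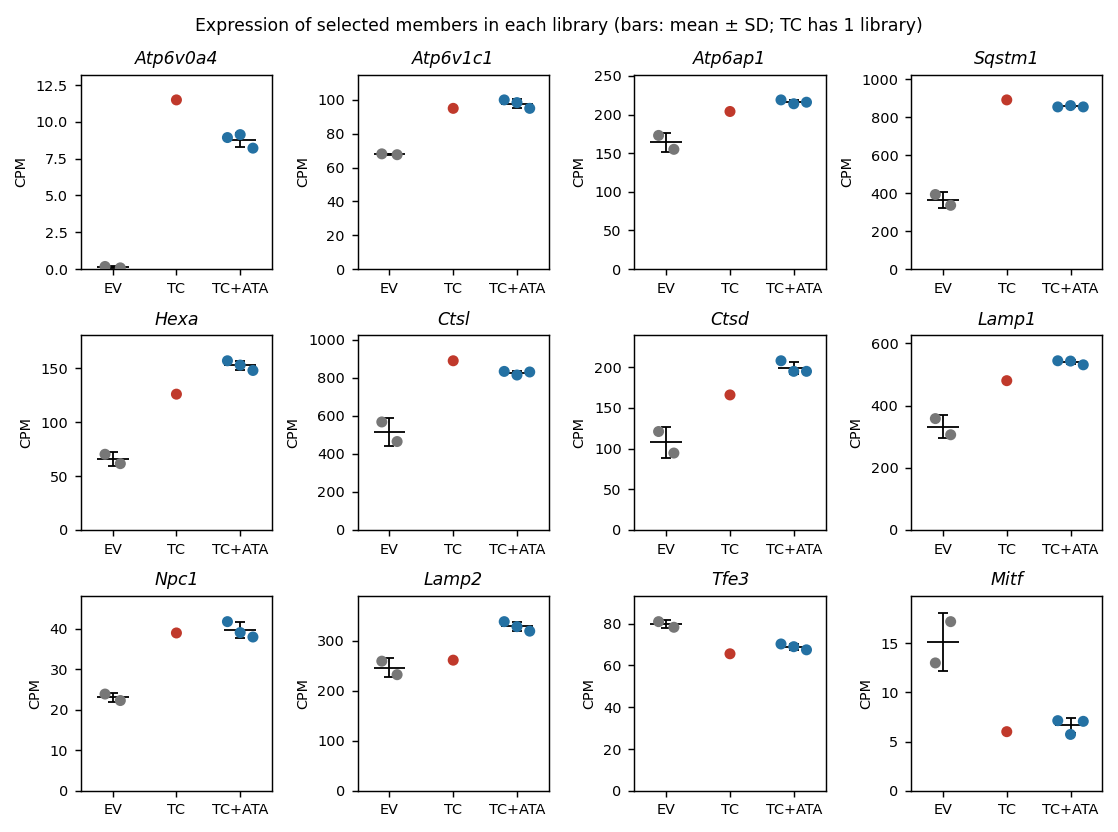
Points give CPM (y axis, from 0) of 12 members in each library by group, and bars give mean ± SD for EV (n = 2) and TC + ATA (n = 3). TC and TC + ATA are both above EV for Atp6v0a4, Sqstm1, Hexa, Ctsl, Ctsd, Lamp1 and Npc1, both below EV for Tfe3 and Mitf, and for Lamp2 TC (261 CPM) sits with EV while TC + ATA (319 to 338 CPM) is above it.

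The transcription factor transcripts went the other way. Mitf had 13.0 and 17.2 CPM in EV, 6.01 CPM in TC and 7.13, 5.73 and 7.06 CPM in TC + ATA. Mitf fell by 1.33 on the log2 scale in TC versus EV (SE 0.21, adjusted p = 0.00147), a 2.51-fold difference without overlap between groups. Tfe3 had 81.0 and 78.3 CPM in EV, 65.6 CPM in TC and 70.3, 69.0 and 67.5 CPM in TC + ATA, also without overlap (-0.28 ± 0.08, SE, adjusted p = 0.0281), and the call was lost in 5 of 13 alternatives. Tfeb had 6.82 and 6.75 CPM in EV, 5.20 CPM in TC and 5.45, 4.32 and 5.51 CPM in TC + ATA. Every library with the fusion was below EV for Tfeb too, but TC versus EV did not pass the test (-0.38 ± 0.19, SE, adjusted p = 0.169). These factors are regulated largely by phosphorylation and entry into the nucleus, which transcript levels do not measure. A related gene that is no member, Tfec, had 2 and 0 counts in EV, 55 counts in TC and 47, 63 and 46 counts in TC + ATA (adjusted p = 0.000684, TC versus EV), and stayed under 1 CPM throughout. Tfec was chosen for mention after its values were seen.

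The E-box CACGTG, the core of the element through which these factors are known to act on lysosomal genes, was searched in the same promoter windows. It was found in 12 of the 51 member windows (23.5%), 1 for each of 12 members, and in 7.15% of all windows. The 12 were the V-ATPase genes Atp6v0b, Atp6v0d1, Atp6v0e and Atp6v1a and the lysosome genes Ctsa, Ctsd, Ctsl, Gaa, Gla, Glb1, Lamp1 and Mcoln1. The full palindromic form of the CLEAR element was in no member window and in 0.326% of all windows. The windows of Lamp1 and Ctsd are shown because both genes rose in TC and hold several matches, and that of Hexa because it rose more and holds none. Capitals mark CACGTG, which reads the same on both strands. The windows lie at chr8:13158911-13159210 (plus strand) for Lamp1, chr7:142387778-142388077 (minus strand) for Ctsd and chr9:59539290-59539589 (plus strand) for Hexa, in GRCm38.p6 from RefSeq.
Lamp1: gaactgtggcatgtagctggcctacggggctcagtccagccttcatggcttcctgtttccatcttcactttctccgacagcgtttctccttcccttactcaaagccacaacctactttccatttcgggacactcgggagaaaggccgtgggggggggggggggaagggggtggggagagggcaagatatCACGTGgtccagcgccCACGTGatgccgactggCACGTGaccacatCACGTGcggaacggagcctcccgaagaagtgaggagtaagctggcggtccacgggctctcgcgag
Ctsd: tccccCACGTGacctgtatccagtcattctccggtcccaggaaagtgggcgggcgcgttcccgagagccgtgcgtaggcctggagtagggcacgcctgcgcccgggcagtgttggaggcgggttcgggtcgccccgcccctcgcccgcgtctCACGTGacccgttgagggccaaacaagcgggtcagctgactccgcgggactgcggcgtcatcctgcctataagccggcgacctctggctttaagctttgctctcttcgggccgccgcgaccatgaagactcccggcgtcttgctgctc
Hexa: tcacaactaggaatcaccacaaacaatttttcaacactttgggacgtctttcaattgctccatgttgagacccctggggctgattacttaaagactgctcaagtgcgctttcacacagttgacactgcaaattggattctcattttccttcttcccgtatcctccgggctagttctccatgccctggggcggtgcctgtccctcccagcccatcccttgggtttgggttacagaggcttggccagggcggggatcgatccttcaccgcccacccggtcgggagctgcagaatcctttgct
Lamp1 had 4 matches within 61 bases before the start and Ctsd had 2, at 98 and 245 bases before it. Shorter stretches from V-ATPase genes show the same core in Atp6v0b (36 bases before the start, chr4:117887350-117887375, minus strand), Atp6v0d1 (3 bases before, chr8:105566052-105566077, minus strand) and Atp6v1a (131 bases before, chr16:44139375-44139400, minus strand).
Atp6v0b: gcgcgggggtCACGTGgggtcggcgc
Atp6v0d1: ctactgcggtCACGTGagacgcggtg
Atp6v1a: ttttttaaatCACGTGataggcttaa
Of the 12 members with the E-box, 4 were called higher in TC versus EV, with a median log2 fold change of 0.13. Of the 22 tested members whose window lacked it, 4 were called higher and 3 lower, with a median of 0.04. No test was made of this difference. For scale, 14.8% of the 18539 genes in the fit rose in TC versus EV and 13.2% fell. At a mean of 20 CPM or more (7666 genes) these shares were 23.3% and 16%. Several matches did not always go with a rise. Atp6v0b, Gla and Mcoln1 hold 2 each and did not pass the test in TC versus EV, whereas Ctsa, also with 2, rose.

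**Figure D4:**
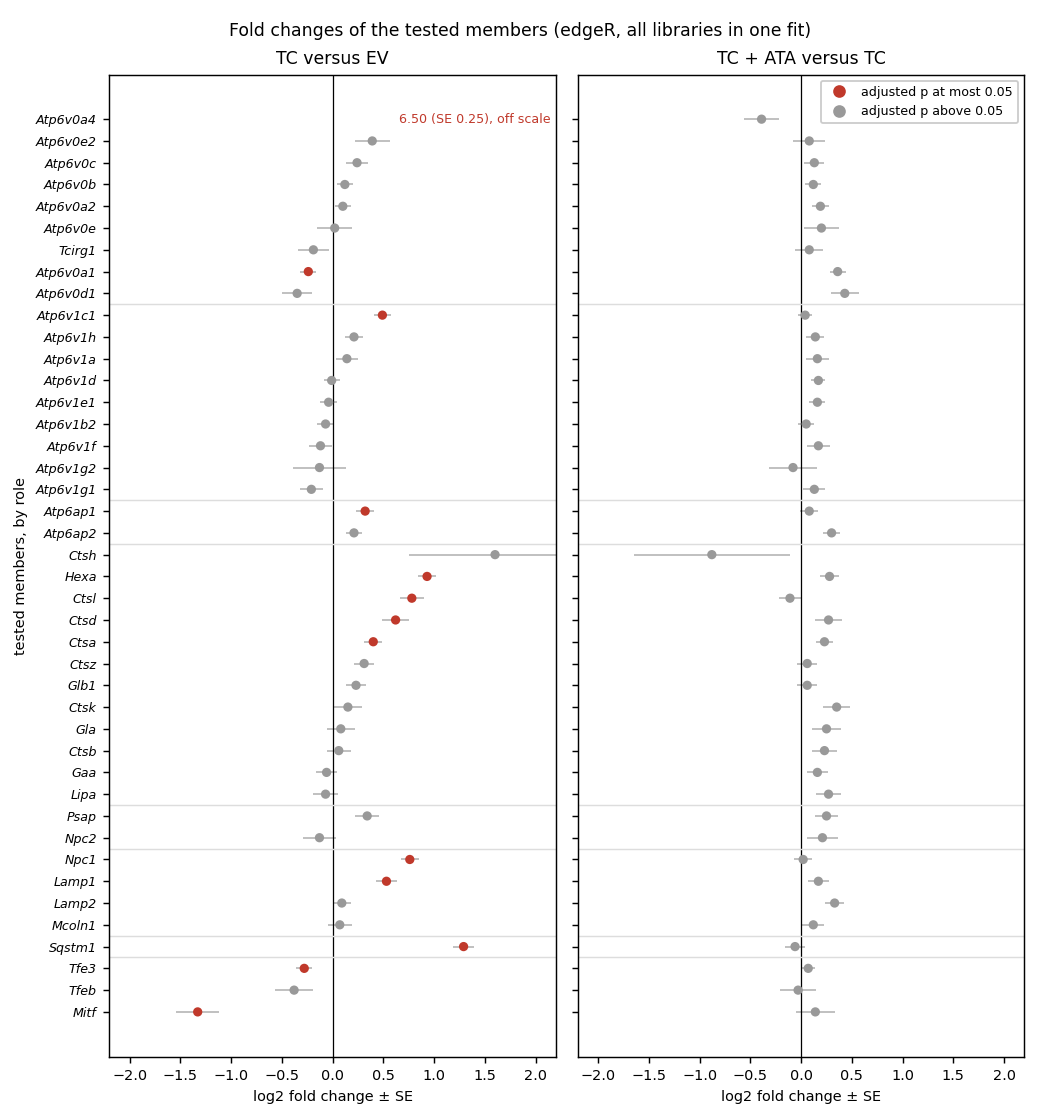
Points give the log2 fold change of each tested member (rows, by role) with bars of ± 1 SE, for TC versus EV (left) and TC + ATA versus TC (right), and red marks an adjusted p of at most 0.05. On the left 13 members are red, with Atp6v0a4 (6.50) off the scale, and on the right no point is red while 36 of 42 lie above 0.

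The second comparison, TC + ATA versus TC, addresses what ATA changed in cells with the fusion. No member passed the test, with edgeR, while 0.426% of all genes were called higher and 0.156% lower. At an unadjusted p under 0.05, 9 members were higher and 1 lower, against 5.65% and 3.95% of all genes, and DESeq2 called Atp6v0a1 and Lamp2 higher. The direction was nevertheless shared by most members: 36 of the 42 had a positive log2 fold change, with a median of 0.15, 0.14 over the V-ATPase group and 0.17 over the lysosome group, against 0.00 over all genes and -0.02 over the 7666 genes with a mean of at least 20 CPM. All 3 TC + ATA libraries were above the TC library for 32 of the 42 members, against 30.5% of all genes, and below it for 4, against 32.7%. Among the 35 members with a mean of at least 20 CPM the count above was 30 and the count below 2, against 31.7% and 42.4% of such genes. Each of these counts rests on the same single TC library. A difference of that library from other TC cultures and an effect of ATA therefore cannot be told apart. The EV libraries also differed from each other by this much: EV 1 stood above EV 2 for 38 of the 42 members, with a median of 0.18. The TC + ATA libraries lay closer together, with a median coefficient of variation of 3.08% over the members against 11.1% in EV.

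The largest positive values with ATA were those of the V0 genes Atp6v0d1 (0.43 ± 0.14, SE, adjusted p = 0.328) and Atp6v0a1 (0.36 ± 0.08, SE, adjusted p = 0.0946). Atp6v0d1 had 46.7 CPM in TC and 63.7, 64.7 and 59.9 CPM in TC + ATA, and for both genes the TC library was also below EV. Next came Ctsk (0.35), Lamp2 (0.33 ± 0.09, SE, adjusted p = 0.225) and Atp6ap2 (0.30 ± 0.08, SE, adjusted p = 0.192). Lamp2 and Atp6ap2 differ from the V0 genes in that the TC library lay at or above EV. The negative values were those of Ctsh (-0.88 ± 0.77, SE), Atp6v0a4 (-0.39), Ctsl (-0.11), Atp6v1g2 (-0.08), Sqstm1 (-0.06) and Tfeb (-0.03). Of the members that rose in TC, Atp6v0a4, Ctsl and Sqstm1 thus had negative values with ATA. Positive values were those of Hexa (0.28 ± 0.09, SE, adjusted p = 0.319), Ctsd (0.27 ± 0.13, SE, adjusted p = 0.563) and Lamp1 (0.17 ± 0.10, SE, adjusted p = 0.662). The others were Ctsa (0.23), Atp6ap1 (0.08), Atp6v1c1 (0.04) and Npc1 (0.02). None of these passed the test. Both comparisons use the single TC library, so a high value in it raises the first difference and lowers the second.

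The count of calls depended on which libraries set the spread. A fit of the TC and TC + ATA libraries alone called 7 V-ATPase and 10 lysosome members higher and none lower, against 4.42% and 3.52% of all genes. The V-ATPase members were Atp6v0d1, Atp6v0e, Atp6v0a1, Atp6v0a2, Atp6v1d, Atp6v1g1 and Atp6ap2. The lysosome members were Psap, Npc2, Lamp1, Lamp2 and the hydrolases Ctsa, Ctsb, Ctsd, Gaa, Hexa and Lipa, each between 0.15 and 0.40 on the log2 scale over all alternatives. Leaving out EV 1 gave 4 and 9 higher and none lower (3.84% and 4.14% of all genes higher and lower), and leaving out EV 2 gave 7 and 10 and none (4.41% and 3.32%). In these fits the spread comes from the 3 TC + ATA libraries alone, and 25 of the 42 members were called in no alternative.

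**Figure D5:**
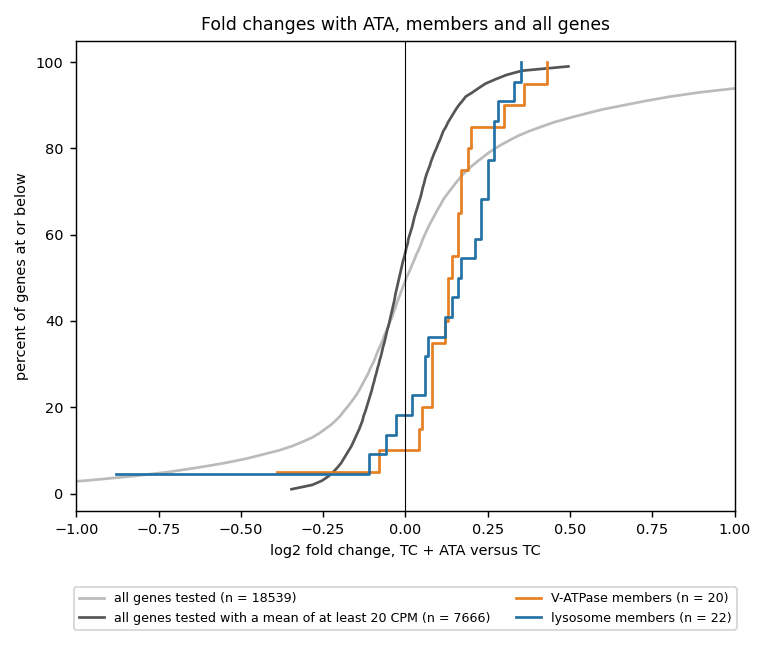
Curves give the percent of genes (y axis) at or below each log2 fold change of TC + ATA versus TC (x axis, shown from -1 to 1) for the 20 V-ATPase and 22 lysosome members tested, all 18539 genes tested and the 7666 of them with a mean of at least 20 CPM. Both member curves cross their middle to the right of 0 (medians 0.14 and 0.17), and the curves of all genes cross it near 0 (0.00 and -0.02).

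The third comparison, TC + ATA versus EV, has 3 and 2 libraries but joins the fusion and ATA, which cannot be told apart in it. It shares its libraries with both comparisons above. Of the V-ATPase group 10 of 20 were called higher and none lower, and of the lysosome group 14 were higher and 3 lower of 22, against 18.0% and 18.6% of all genes. Among members with a mean of at least 20 CPM 60% were called higher and 2.86% lower, against 26.2% and 22.8% of such genes. The median log2 fold change was 0.23 over the V-ATPase group, 0.39 over the lysosome group and -0.01 over all genes. The V-ATPase members called were Atp6v0a4, Atp6v0e2, Atp6v0c, Atp6v0a2, Atp6v0b, Atp6v1c1, Atp6v1h, Atp6v1a, Atp6ap1 and Atp6ap2, and other than Atp6v0a4 (6.10 ± 0.23, SE, adjusted p = 2.29e-07) they ranged from 0.24 for Atp6v0b to 0.53 for Atp6v1c1. Among the hydrolases 9 of 12 were called, led by Hexa (1.21 ± 0.07, SE, adjusted p = 3.24e-06) and Ctsd (0.89 ± 0.10, SE, adjusted p = 0.00017), and Lipa, Gaa and Ctsh did not pass. Sqstm1 stood at 1.23, Npc1 at 0.78, Lamp1 at 0.70, Psap at 0.58 and Lamp2 at 0.42, all called. The 3 transcription factors were the members called lower, Mitf at -1.19, Tfeb at -0.42 (adjusted p = 0.0413) and Tfe3 at -0.21 (adjusted p = 0.0209), and the calls of Tfeb and Tfe3 were lost in 8 and 5 of 14 alternatives. The call of Atp6v0a2 was lost under a replicate block (adjusted p = 0.0508), and those of Atp6v0b, Atp6v0e2, Atp6v1a, Ctsb, Gla and Glb1 under at least 1 alternative. Atp6v0a4 alone was past the study's log2 limit of 2, as were 2.80% of all genes upward and 1.06% downward. Every TC + ATA library was above both EV libraries for 29 of the 42 members and below both for 3, against 28.7% and 30.1% of all genes. Without EV 1 the V-ATPase group had 16 members higher and 1 lower and the lysosome group 17 and 2, against 22.1% and 23.9% of all genes, and without EV 2 they had 11 and 1 and 14 and 3, against 21.8% and 21.7%.

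Other genes of the same pathway were taken from 5 lists with 106 genes, of which 102 were tested. In TC versus EV 21 of them rose and 12 fell (20.6% and 11.8%, against 14.8% and 13.2% of all genes), none was called in TC + ATA versus TC with edgeR (13 higher and 0 lower at an unadjusted p under 0.05), and in TC + ATA versus EV 36 rose and 12 fell (35.3% and 11.8%, against 18.0% and 18.6%). Of 35 further hydrolases and their cofactors, 8 rose and 3 fell in TC versus EV (22.9% and 8.57%), with a median log2 fold change of -0.04. Among all genes with a mean of at least 20 CPM, 23.3% rose and 16% fell. Lgmn (legumain, a protease that matures cathepsins) had 58.0 and 54.1 CPM in EV, 114 CPM in TC and 128 to 133 CPM in TC + ATA, and rose by 1.02 ± 0.08 (SE, adjusted p = 2.09e-05). Ctso, another cathepsin, fell by 1.93 on the log2 scale (SE 0.16, adjusted p = 3.31e-05), from 11.4 and 11.5 CPM in EV to 3.00 CPM in TC and 3.48 to 3.78 CPM in TC + ATA.

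Of 21 further membrane and sorting genes tested, 7 rose and 1 fell in TC versus EV (33.3% and 4.76%). The gene that fell was Tmem175, a lysosomal ion channel, with 13.5 and 14.4 CPM in EV, 6.97 CPM in TC and 8.01 to 8.92 CPM in TC + ATA (2.01-fold lower in TC, SE 0.13 on the log2 scale, adjusted p = 0.000606). Of 9 genes for assembly and regulation of the V-ATPase, Dmxl2, a subunit of the RAVE-like complex that helps V1 join V0, rose from 2.61 and 2.96 CPM in EV to 5.96 CPM in TC and 4.75 to 5.56 CPM in TC + ATA (1.10 ± 0.18, SE, adjusted p = 0.0019), and Rogdi, of the same complex, fell (-0.79, adjusted p = 0.00612). Among 15 genes that link the lysosome to mTORC1 and TFEB, 2 rose and 3 fell (13.3% and 20%), the latter being the Ragulator subunits Lamtor2, Lamtor3 and Lamtor4. Among 22 autophagy genes 3 rose (Wipi1, Rubcn and Uvrag) and 4 fell (Atg12, Gabarap, Ulk2 and Nbr1), which is 13.6% and 18.2%. The shares of the last 2 lists lie near those of all genes for genes that rose. Nbr1, a cargo receptor like Sqstm1, had 90.9 and 89.4 CPM in EV and 67.9 CPM in TC, so Nbr1 and Sqstm1 moved in opposite directions. Optn and Tax1bp1, on the same list, were called in neither direction. Rogdi, the Lamtor genes and the autophagy genes were named after their values were seen.

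Markers of other cell types that are rich in these proteins were mostly low, but several leukocyte markers were above 1 CPM. Of 7 osteoclast markers 6 were under 1 CPM in every library, the exception being Ctsk, a member, and the summed level was 8.66 and 9.96 CPM in EV, 10.5 CPM in TC and 12.3 to 14.1 CPM in TC + ATA. Of 7 leukocyte markers 3 were under 1 CPM in every library, and the sum was 9.44 and 9.45 CPM in EV, 11.9 CPM in TC and 13.4 to 17.7 CPM in TC + ATA. Ptprc had 3.17 and 2.87 CPM in EV, 2.23 CPM in TC and 0.282, 5.33 and 4.21 CPM in TC + ATA. Its TC + ATA libraries thus differed widely from each other. Cd68 had 2.57 and 3.45 CPM in EV, 2.58 CPM in TC and 1.81 to 3.68 CPM in TC + ATA. Lyz2, the macrophage lysozyme, had 0.495 and 0.249 CPM in EV, 5.66 CPM in TC and 8.4 to 9.59 CPM in TC + ATA. Csf1r, the macrophage growth factor receptor, had 3.17 and 2.77 CPM in EV, 1.41 CPM in TC and 0.846 to 1.72 CPM in TC + ATA, and Itgam was at 0 in EV and TC. The part of such cells in the lysosomal values was not tested. All 6 epithelial markers were under 1 CPM in every library.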

How the data were processed

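Poly(A) RNA of 6 NIH3T3 libraries was examined, grouped by the sample labels. The authors sequenced paired-end reads, aligned them to the mouse genome (GRCm38.p6, mm10) with HISAT2 (2.2.1 per the submitters' processing notes) and ran featureCounts in Galaxy. Its raw whole-number counts for each gene were deposited by the authors without normalization. The annotation release and the use of strand are not given in the sources used here. Exons of 19 members overlap another gene, over 10% of exon bases in 9, and such reads may be split or lost.

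From the counts, CPM and log2 fold changes were computed with edgeR 4.0.16 in R 4.3.3 (TMM factors 0.969 to 1.083, filterByExpr, glmQLFit and glmQLFTest on all 6 libraries in one fit with 3 residual degrees of freedom), and p-values were adjusted by Benjamini-Hochberg over all 18539 genes tested. SEs were derived from the F statistic. The spread behind the TC group comes from the EV and TC + ATA libraries. The test was also run on simulated counts with changes of at least 1 on the log2 scale, so smaller changes were not checked. Symbols came from GENCODE M21 (55141 of 55401 IDs named), exon lengths from the same models and promoter windows from RefSeq. Values in every library were given for the 4 a-subunit isoforms, Tfeb, Tfe3, Mitf, Sqstm1, Lamp1, Lamp2, Ctsb, Ctsd, Ctsl and any member called at an absolute log2 fold change of 1 against EV or called with ATA, and from the 5 pathway lists for genes called at that size in TC versus EV with a mean of at least 1 CPM. Values of Atp6v1c1, Atp6ap1, Atp6ap2, Atp6v0d1, Atp6v0e, Ctsa, Npc1, Npc2, Mcoln1, Psap, Pltp, Mrnip, Nbr1, Thy1, Pdgfra, Lyz2, Csf1r and Itgam were added after they were seen. Those of Ptprc, Cd68, Fdft1, Gm49369, Gm49230 and Gm47123 were added in the same way. The members, lists and tests were chosen with earlier results of these data known. Alternatives were scaling by library total, upper quartile or RLE, no filter or a filter of 5 CPM, DESeq2 1.42.0, a replicate block, the compared groups alone, leaving out each library and other gene lengths. The position of TC + ATA libraries under other scalings, and the genes with a mean of at least 20 CPM, were added after seeing the data. Intervals are SEs between libraries, and a count of 0 allows up to 3 counts.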

Additional observations from a re-analysis of the deposited data

How the results depend on the processing

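Of the calls, 8 of 13 in TC versus EV and 18 of 27 in TC + ATA versus EV held under every alternative run, and of the named members' fold changes 489 kept direction and side of the threshold, 33 lost the call, 29 gained it and 9 changed sign.

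In TC versus EV the V-ATPase members called lower, 1 as reported, were 3 with library total scaling and 0 with RLE scaling, DESeq2 or only the groups compared. With only the groups compared 1 lysosome member was lower in TC versus EV. Leaving out 1 library gave, in TC versus EV, 2 to 8 V-ATPase members higher and 0 to 5 lower, and 7 to 13 lysosome members higher and 1 to 5 lower. In TC + ATA versus TC leaving out 1 library gave 0 to 7 V-ATPase and 0 to 10 lysosome members higher, the largest counts without EV 1 (4 and 9) and EV 2 (7 and 10). In TC + ATA versus EV it gave 7 to 16 V-ATPase members higher and 0 to 1 lower, and 11 to 17 lysosome members higher and 1 to 3 lower, the lysosome count lower being 1 without TC + ATA 1, 2 or 3. In TC + ATA versus TC the V-ATPase members higher were 1 without a filter, 1 with DESeq2 and 7 with only the groups compared, and the lysosome members higher were 1 with DESeq2 and 10 with only the groups compared. DESeq2 called 1 lysosome member lower in TC + ATA versus EV. The fits of fewer libraries rest on fewer degrees of freedom, and in those without an EV library the spread comes from TC + ATA alone. For other changes the cause was not tested.

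EV and TC + ATA share replicate numbers 1 and 2 in the labels, but nothing says that a number marks a shared batch, and the deviations of same-numbered libraries correlated at -0.0161 and -0.1638. A block for the replicate number left 0 V-ATPase and 1 lysosome members lower in TC versus EV, 1 lysosome member lower in TC + ATA versus EV, while 2 and 7 V-ATPase and 5 and 13 lysosome members were higher in these comparisons, against 3 and 10 and 7 and 14 as reported. Over all genes the calls for TC against EV were 1717 higher and 1467 lower with it and 2735 and 2456 without it. For TC + ATA against TC they were 32 and 8 with it and 79 and 29 without it, and for TC + ATA against EV 2450 and 2195 with it and 3340 and 3449 without it. Under the block the log2 fold change of Ctsb in TC versus EV was -0.02 and that of Sqstm1 in TC + ATA versus TC was 0.00.

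Signs also turned, none past the threshold, for Tcirg1 without EV 2 (0.02 for TC and 0.11 for TC + ATA against EV, but -0.39 and -0.31, both called, without EV 1), for Atp6v0a2 (-0.01), Ctsb (-0.04) and Lamp2 (-0.01) in TC versus EV with library total scaling, for Ctsb without EV 2 (-0.09, but 0.22 and called without EV 1) and for Tfeb in TC + ATA versus TC without TC + ATA 2 (0.08). Library total scaling moved the median of all genes to -0.134 for TC and -0.098 for TC + ATA against EV, and the members' medians were then 0.003 and 0.213. It split the calls over all genes into 2072 higher and 3159 lower for TC and 2711 and 4384 for TC + ATA against EV. The TC + ATA libraries were all above TC for 35 and 33 members with library total and upper quartile scaling. With the longest transcript or the longest coding sequence as length, the mean share in TC + ATA was 30.2% or 31.9% for Atp6v0a1, 24.6% or 32.7% for Atp6v0a2 and 40.4% or 31.4% for Tcirg1, and with the coding sequence 3.99% for Atp6v0a4.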
